A study of Mus musculus with 8 samples.

Results

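The choroid plexus marker genes described here are 10 of the 50686 genes in the deposited count table. They were chosen by name as transcripts of the choroid plexus and read in every library without a threshold on their level. They are *Ttr*, *Enpp2*, *Kl*, *Sostdc1*, *Clic6*, *Aqp1*, *Steap1*, *Folr1*, *Prlr* and *Otx2*. RNA-seq was performed on ventral hippocampus of 8-week-old male C57BL/6J mice, with 1 mouse per library. Replicates 1 to 4 received vehicle and replicates 5 to 8 received 3 mg/kg corticosterone, the main glucocorticoid of rodents, and all were killed 3 h after the injection. The vehicle mice were injected too, and all mice were group-housed, 4 to a cage. The genes were read to ask whether tissue carried over from the lateral ventricle, or a change with treatment, was seen in these markers.

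The choroid plexus is a folded, vascularised tissue in the brain ventricles whose single-layered epithelium secretes cerebrospinal fluid. In the lateral ventricle it lies along the hippocampus, where it can stay attached when the hippocampus is taken out. Its epithelium is known for abundant transthyretin, which carries thyroxine and, with retinol-binding protein, retinol into the fluid. Some of the other markers are also made by cells of the hippocampus itself, as *Enpp2* is by oligodendrocytes and *Kl* by neurons.

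Between 17492159 and 19931987 reads per library were counted on genes, 84.6% to 86.3% of the reads in the table. At that depth, a count of 0 allows up to 3 reads, or 0.151 to 0.172 CPM, a gene's reads scaled by all reads on genes, covering counting error only. All levels are given as CPM of the reads on genes kept by the low-count filter of edgeR, after scaling with its TMM method. Their scale thus differs slightly from that of the 0.151 to 0.172 CPM above. The hippocampal identity of the tissue was checked with 10 genes of hippocampal neurons, all of which were detected in every library and summed to 2655 to 3640 CPM. In bulk tissue, fewer cells of a type and less RNA per cell cannot be told apart. No batch is named in the labels.

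Of the 10 genes, 7 passed the filter of edgeR (filterByExpr), and *Aqp1*, *Steap1* and *Folr1*, with at most 14 reads per library, did not. None of the 7 tested genes passed an adjusted p value of 0.05 in the quasi-likelihood test of edgeR, where 0.00624% of all 16018 genes tested passed it. DESeq2 also called 0 of them, where it called 63 over all genes. At an unadjusted p value under 0.05, edgeR and DESeq2 each gave 2 of the 7, *Clic6* and *Otx2* in edgeR. In edgeR, 9.03% of all genes were under that value, and the share was not counted for DESeq2. A positive log2 fold change was found in 6 of the 7, with a median of 0.29, whereas 8127 of all 16018 genes had one, with a median of 0.0036. The vehicle and corticosterone values were fully separate in 1 of the 7, *Sostdc1*, as they were in 3.66% of all genes.

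**Figure D1:**
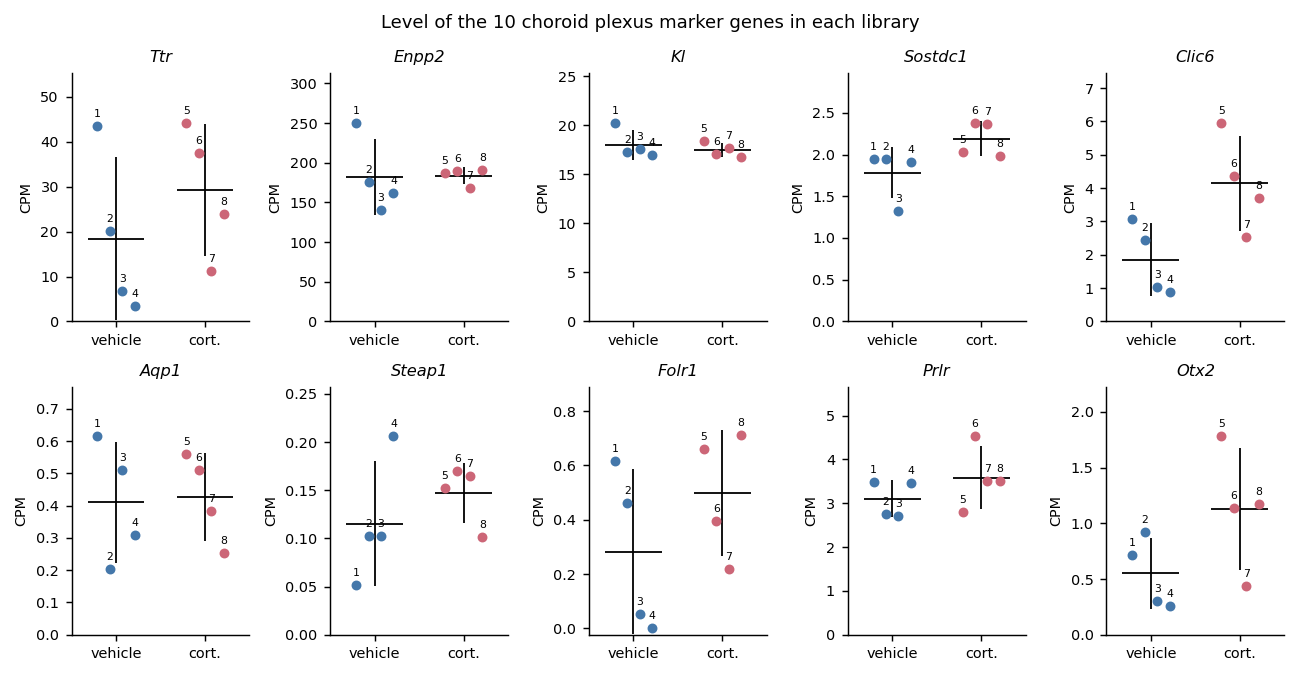
Level (CPM) of each of the 10 genes in the 4 vehicle (blue) and 4 corticosterone (red, cort.) libraries, with the replicate number above each point, the group mean as a horizontal line and the SD as a vertical line. *Ttr*, *Clic6*, *Otx2* and *Folr1* were lowest in vehicle replicates 3 and 4, whereas *Kl* stayed between 16.8 and 20.3 CPM.

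Promoter sequences are shown for the genes with an entry among the RefSeq promoters of GRCm38.p6, which held windows for 5 of the 10 genes (*Steap1*, *Kl*, *Aqp1*, *Otx2* and *Prlr*) and 10 windows in all. Each window spans 250 bases before to 50 bases after an annotated start. Both strands were searched for TAATCC, the core of the site bound by OTX proteins, and for AGAACA, a core of the sites of the steroid receptors that bind corticosterone. The letters of the 2 motifs did not overlap in any window. TAATCC occurred in 1 of the 10 windows, in the *Otx2* gene itself, and in 7.06% of the 32851 windows searched. AGAACA occurred in 3 of the 10, 1 each in *Kl*, *Prlr* and *Otx2*, and in 18.97% of all windows. A match is a description of the letters and not of a binding site. The 250 bases before the first *Otx2* start are shown because the level of *Otx2* moved with that of *Ttr*. Those of *Kl* are shown because its level varied little, 1.21-fold over the libraries, and because they hold AGAACA, in capitals as its reverse complement. The *Otx2* stretch lies on the minus strand at chr14:48667645-48667894, with 0 exonic bases in GENCODE M21, and within an intron of 1 of the 11 annotated transcripts. The *Kl* stretch lies on the plus strand at chr5:150952357-150952606, outside annotated exons. The third line is a 26-base stretch at chr14:48665305-48665330 on the minus strand, within an annotated *Otx2* exon, with the reverse complement of TAATCC in capitals, 211 bases before the third of the 4 starts.
Otx2, before the first start: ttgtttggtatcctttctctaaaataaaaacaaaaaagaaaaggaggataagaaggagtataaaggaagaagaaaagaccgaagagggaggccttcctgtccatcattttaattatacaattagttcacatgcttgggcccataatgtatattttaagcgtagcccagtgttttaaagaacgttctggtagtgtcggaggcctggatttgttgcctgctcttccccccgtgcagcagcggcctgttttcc
Kl, before the start: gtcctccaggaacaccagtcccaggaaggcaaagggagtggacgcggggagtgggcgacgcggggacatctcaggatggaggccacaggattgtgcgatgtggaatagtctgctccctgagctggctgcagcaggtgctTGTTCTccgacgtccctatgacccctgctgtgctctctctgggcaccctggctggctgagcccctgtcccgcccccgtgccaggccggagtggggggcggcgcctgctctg
Otx2, before the third start: tgtgcccctcGGATTAtctcgttagt

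Secreted proteins come first. *Ttr* encodes transthyretin and lies on chromosome 18 (20665280 to 20674321, GRCm38). It had 847, 394, 132 and 65 reads in vehicle replicates 1 to 4 and 868, 662, 204 and 469 reads in corticosterone replicates 5 to 8. In CPM, these were 43.4, 20.2, 6.74 and 3.35 after vehicle, and 44.2, 37.5, 11.2 and 23.9 after corticosterone. Vehicle replicate 1 was as high as the highest corticosterone library, vehicle replicates 3 and 4 were the lowest of all, and the groups overlapped. The highest library was 13.2-fold above the lowest, and the SD of log2 CPM within groups was larger than that of 99.9% of the genes tested. The mean was 18.4 ± 18.2 CPM after vehicle and 29.2 ± 14.7 CPM after corticosterone (SD, n = 4 each). In edgeR, *Ttr* had a log2 fold change of 0.66 with a standard error of 0.58 (adjusted p = 0.669), and an exact permutation test over the 70 assignments of 4 against 4 gave p = 0.257 (two-sided). When 1 library at a time was left out, the log2 fold change was between 0.31 and 1.53.

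*Enpp2* encodes autotaxin, the secreted enzyme that makes lysophosphatidic acid, and lies on chromosome 15 (54838901 to 54952892). It was the most abundant of the 10 genes per length of exons, at 31.6 CPM per kb on average, followed by *Ttr* at 20.1 CPM per kb. Its level was 250, 176, 140 and 161 CPM after vehicle and 187, 189, 168 and 191 CPM after corticosterone. Vehicle replicate 1 was the highest library and vehicle replicates 3 and 4 the lowest, with all corticosterone libraries in between. In edgeR, *Enpp2* had a log2 fold change of 0.015 with a standard error of 0.14 (adjusted p = 0.973), and its sign was negative when vehicle replicate 2, 3 or 4 or corticosterone replicate 8 was left out. An exon of *Gm26684* overlaps *Enpp2* on the opposite strand, with 17 reads over all libraries.

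*Kl* encodes klotho, the co-receptor of fibroblast growth factor 23 that is also shed into the cerebrospinal fluid, and lies on chromosome 5 (150952607 to 150993817). Its level was 20.3, 17.2, 17.6 and 17.0 CPM after vehicle and 18.4, 17.1, 17.7 and 16.8 CPM after corticosterone. Apart from vehicle replicate 1, all libraries of both groups were between 16.8 and 18.4 CPM. In edgeR, *Kl* had a log2 fold change of -0.042 with a standard error of 0.092 (adjusted p = 0.870), and the SD within groups was larger than that of only 15.4% of the genes tested. Without vehicle replicate 1, it was 0.016.

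*Sostdc1* encodes sclerostin domain-containing protein 1, a secreted antagonist of BMP and Wnt signalling, and lies on chromosome 12 (36314139 to 36318452). It had 38, 38, 26 and 37 reads after vehicle and 40, 42, 43 and 39 reads after corticosterone. In CPM, the vehicle libraries were at 1.95, 1.94, 1.33 and 1.91 and the corticosterone libraries at 2.04, 2.38, 2.36 and 1.98, so that every corticosterone library was above every vehicle library. The highest vehicle value, 1.95 CPM, was close to the lowest corticosterone value, 1.98 CPM. The mean was 1.78 ± 0.303 CPM after vehicle and 2.19 ± 0.209 CPM after corticosterone (SD, n = 4 each), and the exact permutation test gave p = 0.0286, the smallest that 4 mice against 4 allow (two-sided). With a log2 fold change of 0.29 and a standard error of 0.20, *Sostdc1* did not pass the threshold in edgeR (adjusted p = 0.603).

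Next are the proteins of ion, water and metal transport. *Clic6* encodes a member of the chloride intracellular channel family and lies on chromosome 16 (92485736 to 92541243). It had 60, 48, 20 and 17 reads after vehicle and 117, 77, 46 and 73 reads after corticosterone. In CPM, the vehicle libraries were at 3.08, 2.45, 1.02 and 0.876 and the corticosterone libraries at 5.95, 4.36, 2.52 and 3.71. The groups overlapped only through corticosterone replicate 7, which was below vehicle replicate 1. The mean was 1.86 ± 1.08 CPM after vehicle and 4.14 ± 1.43 CPM after corticosterone (SD, n = 4 each), and the exact permutation test gave p = 0.0571 (two-sided). Its log2 fold change in edgeR was 1.16 with a standard error of 0.36 (unadjusted p = 0.00705, adjusted p = 0.443), the largest of the 7. Its adjusted p value was 0.186 with DESeq2 and 0.0366 in edgeR without a filter on low counts. When 1 library at a time was left out, the log2 fold change was between 0.92 and 1.51.

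*Aqp1*, the water channel of the apical membrane of the epithelium, lies on chromosome 6 (55336432 to 55348555) and had 12, 4, 10 and 6 reads after vehicle and 11, 9, 7 and 5 after corticosterone. The groups overlapped, and vehicle replicate 1 and corticosterone replicate 5 had the most reads. *Steap1*, a metalloreductase family member on chromosome 5 (5736317 to 5749326), had 1 to 4 reads per library, at or near the 3 reads that a count of 0 allows. A difference between the groups was not detectable at this depth for either, with an exact permutation p of 0.83 for *Aqp1* and 0.371 for *Steap1*.

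Of the proteins of uptake and signalling, *Folr1* encodes the folate receptor alpha, by which the epithelium moves folate into the cerebrospinal fluid, and lies on chromosome 7 (101858331 to 101870788). It had 12, 9, 1 and 0 reads after vehicle and 13, 7, 4 and 14 reads after corticosterone. The libraries with the fewest *Folr1* reads, vehicle replicates 3 and 4, were also the lowest for *Ttr*. The mean was 0.282 ± 0.303 CPM after vehicle and 0.497 ± 0.231 CPM after corticosterone (SD, n = 4 each), and the groups overlapped (exact permutation p = 0.257). *Prlr*, the prolactin receptor, lies on chromosome 15 (10177238 to 10349180), and its level was 3.49, 2.76, 2.71 and 3.45 CPM after vehicle and 2.80, 4.53, 3.51 and 3.51 CPM after corticosterone. Corticosterone replicate 6 was the highest *Prlr* library and corticosterone replicate 5 was among the vehicle libraries. In edgeR, *Prlr* had a log2 fold change of 0.21 with a standard error of 0.18 (adjusted p = 0.671). *Gm21973*, which shares exons with *Prlr* on the same strand, had 0 reads, and *Prl*, the gene of the ligand, had 2 reads in 1 library.

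*Otx2* encodes a homeodomain transcription factor needed for the development and upkeep of the choroid plexus and lies on chromosome 14 (48657677 to 48673819). It had 14, 18, 6 and 5 reads after vehicle and 35, 20, 8 and 23 reads after corticosterone. In CPM, the vehicle libraries were at 0.718, 0.921, 0.306 and 0.258 and the corticosterone libraries at 1.78, 1.13, 0.439 and 1.17. Corticosterone replicates 5, 6 and 8 were above all vehicle libraries, and corticosterone replicate 7 was below vehicle replicates 1 and 2. The mean was 0.551 ± 0.322 CPM after vehicle and 1.13 ± 0.549 CPM after corticosterone (SD, n = 4 each), and the exact permutation test gave p = 0.143 (two-sided). In edgeR, *Otx2* had a log2 fold change of 1.04 with a standard error of 0.46 (unadjusted p = 0.0408, adjusted p = 0.545). The unadjusted p value of *Otx2* was over 0.05 with limma-voom and when vehicle replicate 3 or 4 or corticosterone replicate 5, 6 or 8 was left out in edgeR, with log2 fold changes of 0.73 to 1.04 in those 5 edgeR fits. *Otx2os1*, on the opposite strand, had 5 reads over all libraries, whereas *Gm49154*, which shares exons on the same strand, was not analysed here.

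The 10 genes were next compared with *Ttr* library by library. Vehicle replicates 3 and 4 were the lowest libraries of 6 of the 10 genes, namely *Ttr*, *Enpp2*, *Sostdc1*, *Clic6*, *Folr1* and *Otx2*. For *Sostdc1*, only vehicle replicate 3 stood apart, with vehicle replicate 4 at 1.91 CPM, close to 1.95 and 1.94 CPM in vehicle replicates 1 and 2. On the log2 CPM scale over the 8 libraries, *Clic6* followed *Ttr* with a Pearson r of 0.93 (exact permutation p = 0.00107) and a Spearman rho of 0.90 (exact permutation p = 0.00456), and ranked 6 of 16017 genes by r. For *Otx2*, r was 0.89 (exact permutation p = 0.00355) and rho 0.83 (exact permutation p = 0.0154), with rank 26. *Folr1*, which did not pass the filter and was not ranked, had an r of 0.94 (exact permutation p = 0.00129) and a rho of 0.81 (exact permutation p = 0.0218). For *Enpp2*, r was 0.76 (exact permutation p = 0.0233) and rho 0.81 (exact permutation p = 0.0218), with rank 182. The other genes were less close, with an r of 0.47 for *Kl*, 0.43 for *Sostdc1*, 0.35 for *Aqp1*, 0.19 for *Prlr* and -0.43 for *Steap1*.

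Of the 6 tested genes beside *Ttr*, 3 had an exact permutation p value under 0.05 for r, where 3.26% of all genes had one. After adjustment over all 16017 genes, every p value was 0.9997 or more. Without vehicle replicates 3 and 4, the libraries farthest from the median of *Ttr*, r was 0.71 for *Clic6* (exact permutation p = 0.103), 0.69 for *Otx2*, 0.72 for *Folr1* and 0.67 for *Enpp2*. Over these 6 libraries, none of the 4 had an exact permutation p value under 0.05, though r stayed positive. With fewer libraries and a narrower range of *Ttr*, this cannot tell whether the likeness rests on the libraries left out. Within the groups, r of the deviations from the group means was 0.98 for *Clic6* (exact permutation p = 0.00174), 0.92 for *Folr1* (exact permutation p = 0.0174) and 0.87 for *Otx2* (exact permutation p = 0.0208). For *Enpp2*, it was 0.80, with an exact permutation p of 0.066, no longer under 0.05. By rank, the 10 genes outside the list with the values most like those of *Ttr* were *Zbtb8os* (r = 0.96), *Gm33533*, *Slc45a3*, *Aga*, *Morn2*, *A330015K06Rik*, *Gm19439*, *Cldn14*, *Plekhf1* and *Gm9923* (r = 0.92), none of which is in a marker list used here.

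**Figure D2:**
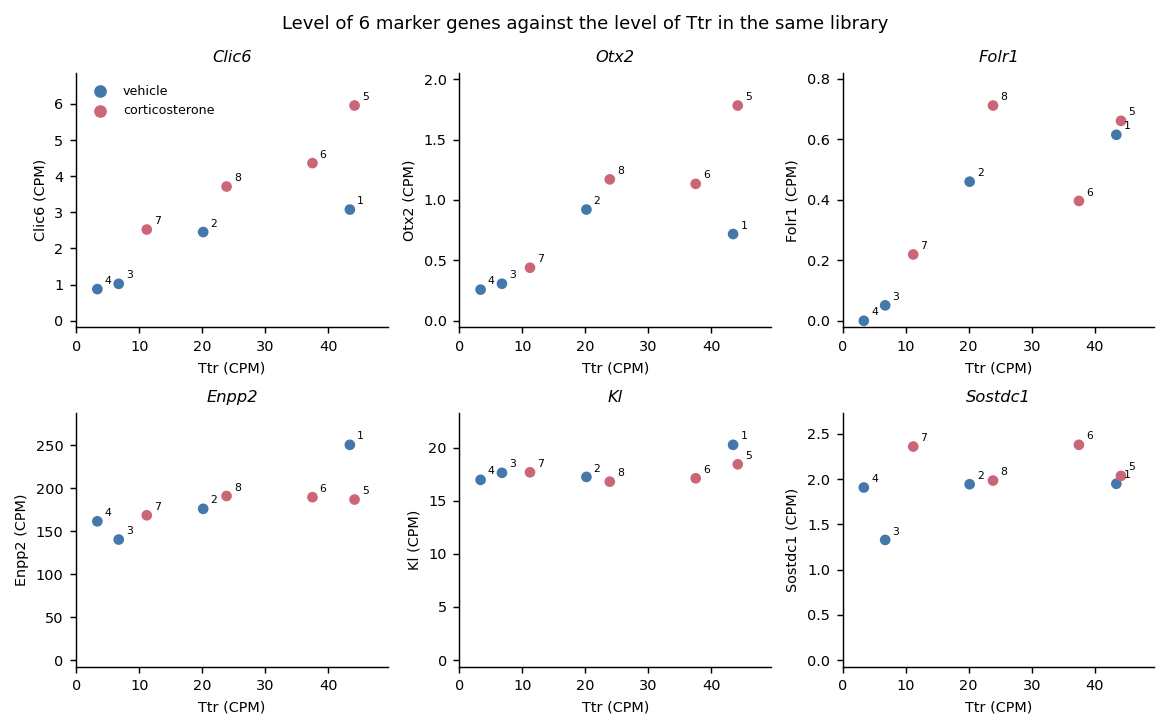
Level (CPM) of 6 genes against the level of *Ttr* in the same library, with 1 point per library and its replicate number, vehicle in blue and corticosterone in red. All but *Kl* were lowest in vehicle replicates 3 and 4, where *Ttr* was lowest, though *Sostdc1* in replicate 4 was close to vehicle replicates 1 and 2. The lowest levels of *Enpp2*, *Kl* and *Sostdc1* were 140, 16.8 and 1.33 CPM.

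The reads of each gene were also expressed relative to those of *Ttr* in the same library. Per 100 *Ttr* reads, *Clic6* had 7.08, 12.2, 15.2 and 26.2 reads after vehicle and 13.5, 11.6, 22.5 and 15.6 reads after corticosterone. The ratio thus varied 3.69-fold over the libraries, less than *Ttr* itself. It was not constant, being highest where *Ttr* was lowest. The mean log2 ratio differed by 0.16 between the groups (corticosterone minus vehicle, exact permutation p = 0.8). The ratio takes *Clic6* to change in proportion to *Ttr*, whereas the fit at equal *Ttr* given below estimates how far it does. Which of them corrects better for *Ttr* was not tested. For *Otx2*, the ratio was 1.65, 4.57, 4.55 and 7.69 after vehicle and 4.03, 3.02, 3.92 and 4.90 after corticosterone (exact permutation p = 0.83). It was lowest in vehicle replicate 1 and highest in vehicle replicate 4, as it was for *Clic6*. *Folr1* had between 0 and 2.99 reads per 100 *Ttr* reads (exact permutation p = 0.4). For *Kl*, the ratio ran from 41.7 to 506 reads, for *Enpp2* from 423 to 4815, for *Prlr* from 6.34 to 103 and for *Sostdc1* from 4.49 to 56.9, so that these genes changed less than in proportion to *Ttr*.

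With log2 CPM of *Ttr* as a covariate in edgeR, beside the group, the slope was 0.55 for *Clic6* (standard error 0.084, unadjusted p = 2.47e-05, adjusted p = 0.132), 0.59 for *Otx2* (0.17, unadjusted p = 0.00379) and 0.16 for *Enpp2* (0.042, unadjusted p = 0.00259). A slope of 1 would mean that a gene doubles when *Ttr* doubles. The slope was 0.05 for *Kl*, 0.03 for *Sostdc1* and 0.01 for *Prlr*. An unadjusted p value under 0.05 for the slope was thus found in 3 of the 6 genes, where 4.61% of all genes had one.

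In the same fit, the log2 fold change at equal *Ttr* was 0.68 for *Clic6* (standard error 0.19, unadjusted p = 0.00425, adjusted p = 0.355) and 0.49 for *Otx2* (unadjusted p = 0.212 with edgeR). It was 0.26 for *Sostdc1*, 0.20 for *Prlr*, -0.09 for *Kl* and -0.14 for *Enpp2*. The value of *Clic6* went from 1.16 without the covariate to 0.68 with it, and that of *Otx2* from 1.04 to 0.49, whereas *Sostdc1* and *Prlr* moved by less than their standard errors. *Clic6* was the 1 gene of the 6 with an unadjusted p value under 0.05 at equal *Ttr*, where 12.9% of all genes had one. Without vehicle replicate 1, its log2 fold change was 0.56 (unadjusted p = 0.066 with edgeR), so that this depended on that library. None of the 6 passed an adjusted p value of 0.05, and 0% of all genes did. Corticosterone replicate 5 and vehicle replicate 1 had about the same *Ttr*, at 44.2 and 43.4 CPM, and *Clic6* was at 5.95 and 3.08 CPM in them. Without vehicle replicate 1, the log2 fold change of *Otx2* at equal *Ttr* was -0.11. Whether the part of the *Clic6* difference that is left at equal *Ttr* comes from treatment was not tested.

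**Figure D3:**
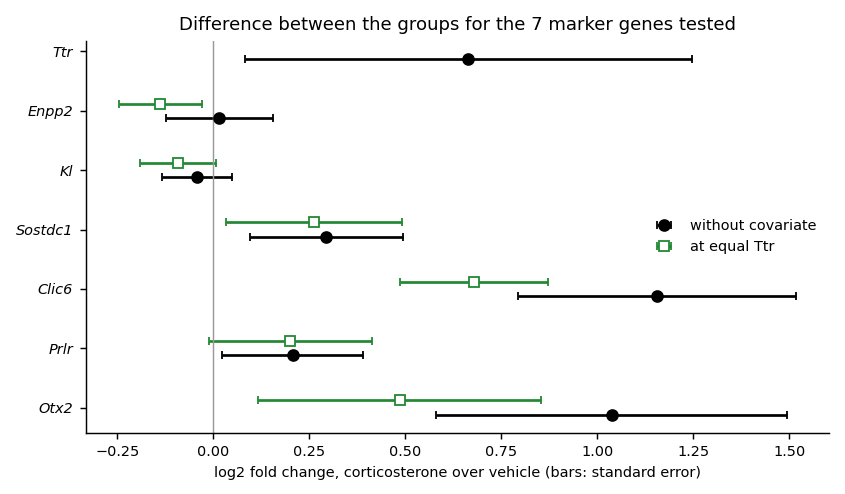
Log2 fold change of corticosterone over vehicle for the 7 genes tested, with the standard error as a horizontal bar, without a covariate (black circles) and with log2 CPM of *Ttr* as a covariate (green squares, not for *Ttr* itself). *Clic6* and *Otx2* moved from 1.16 and 1.04 to 0.68 and 0.49, and *Enpp2* from 0.015 to -0.14.

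Another 37 genes known from the choroid plexus epithelium were counted as a wider list, most of which are also made by other cells of the brain. Of these, 27 were tested, 19 had a positive log2 fold change with a median of 0.11, and 0 passed an adjusted p value of 0.05 in edgeR. At an unadjusted p value under 0.05, 4 were higher (*Slc13a4*, *Lbp*, *Ace* and *Cab39l*) and 2 lower (*Slc29a4* and *Car2*), where 722 of all 16018 genes were higher and 724 lower (9.03% in all). *Lbp*, the lipopolysaccharide-binding protein, had 43, 28, 28 and 26 reads after vehicle and 97, 42, 46 and 81 after corticosterone (log2 fold change 1.13, standard error 0.27, adjusted p = 0.270 with edgeR). In CPM, the *Lbp* groups did not overlap, at 1.34 to 2.21 after vehicle and 2.38 to 4.94 after corticosterone, 1 of 2 such genes among the 27 (the other was *Trpv4*), where 3.66% of all genes had separate groups. The summed level of the list was 738 to 778 CPM after vehicle and 744 to 829 CPM after corticosterone. Most of this sum came from *Slc4a10* (mean 261 CPM after vehicle and 297 CPM after corticosterone) and *Car2* (160 and 140 CPM). Their r with *Ttr* was -0.22 and 0.21, so the sum says little about the scarce genes of the list.

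Of the 27, 2 had an r with *Ttr* of at least 0.7, namely *Kcnj13*, an inwardly rectifying potassium channel of the epithelium (r = 0.80), and *Calml4* (r = 0.82). *Kcnj13* had 4, 13, 1 and 1 reads after vehicle and 19, 15, 3 and 13 reads after corticosterone, again with the fewest in vehicle replicates 3 and 4. The median r of the list was 0.38, and 7 of the 27 had a negative r. Over all 16017 genes, 2.03% had an r above 0.7 and the median was -0.0055. Among the other lists, 1 of 13 meningeal markers (*Igf2*) and 1 of 22 partner genes described below (*Lpar6*) were also above 0.7, and no gene of the remaining lists was. The median r was 0.52 for the meningeal markers, 0.47 for the oligodendrocyte markers, 0.36 for the thalamic markers and 0.29 for the ependymal markers, whereas it was 0.012 for the erythrocyte genes, -0.20 for the genes of hippocampal neurons and -0.45 for the endothelial markers. The other 10 genes of the list, with 13 to 81 reads each over all libraries, were not tested and include the bicarbonate transporter gene *Slc4a5* and the transcription factor gene *Lmx1a*. Their reads summed to 57, 53, 22 and 24 after vehicle and 102, 57, 40 and 61 after corticosterone, so that vehicle replicates 3 and 4 were lowest, as they also were in the summed levels of the ependymal and thalamic markers. In vehicle replicates 3 and 4, 5 and 4 of these 10 genes were at 0 reads, against 0 to 2 in each of the other libraries. *Slc4a5* had 13, 4, 0 and 0 reads after vehicle and 10, 7, 8 and 5 after corticosterone.

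Markers of neighbouring tissue moved with some of these libraries, and their part in the results was not tested. Ependymal cells line the ventricle, and of their 12 markers 9 were tested, all with a positive log2 fold change (median 0.65). At an unadjusted p value under 0.05, 4 of the 9 were higher (*Ccdc153*, *Ak7*, *Cfap54* and *Rsph1*), where 722 of all 16018 genes were. They summed to 18.5 to 22.5 CPM after vehicle and 20.1 to 38.8 CPM after corticosterone, highest in corticosterone replicates 8 and 5. All 13 markers of the meninges and stromal fibroblasts were tested, of which 12 had a positive log2 fold change (median 0.54). At an unadjusted p value under 0.05, 6 were higher (*Dcn*, *Igf2*, *Slc47a1*, *Fmod*, *Ogn* and *Mgp*), some of which the stroma of the choroid plexus also makes. They summed to 125 to 228 CPM after vehicle and 183 to 328 CPM after corticosterone, highest in corticosterone replicate 6. In both lists, 0 genes passed an adjusted p value of 0.05 in edgeR.

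The 8 oligodendrocyte markers all had a negative log2 fold change (median -0.30), of which 3 (*Mbp*, *Mag* and *Opalin*) had an unadjusted p value under 0.05. Of all 16018 genes, 724 were lower at that value, beside which the counts of this and the next lists stand. They summed to 3026 to 5345 CPM after vehicle, with vehicle replicate 1 the highest, and to 2966 to 3663 CPM after corticosterone. With their level as a covariate, a setting added after the data had been seen, the log2 fold change of *Clic6* was 1.85 (adjusted p = 0.0382 with edgeR) and that of *Ttr* 2.17 (adjusted p = 0.0799). The 9 endothelial markers had a negative log2 fold change (median -0.14), with *Cldn5* and *Kdr* lower at an unadjusted p value under 0.05, and summed to 153 to 159 CPM after vehicle and 133 to 149 CPM after corticosterone. The 5 erythrocyte genes had a median log2 fold change of -0.53, with *Hba-a1* lower at an unadjusted p value under 0.05. They summed to 83.1 to 263 CPM after vehicle, with vehicle replicate 2 the highest, and to 80.7 to 105 CPM after corticosterone.

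Among the 10 genes of hippocampal neurons, 3 had a positive log2 fold change (median -0.18), and 2 of the 10, *Neurod2* and *C1ql2*, were lower at an unadjusted p value under 0.05, where 724 of all 16018 genes were. The 6 genes of the thalamus, which lies beside the hippocampus, had a median log2 fold change of 0.079. Their sum was 82.0 to 155 CPM after vehicle and 89.7 to 160 CPM after corticosterone, high in vehicle replicates 1 and 2 and corticosterone replicates 6 and 7. As for *Ttr*, vehicle replicates 3 and 4 were the lowest, at 82.0 and 84.2 CPM, whereas corticosterone replicate 5 was high for *Ttr* and not for these genes, and corticosterone replicate 7 the reverse. In all of these lists, every gene that defines the cell type had reads in each group, except for *Mia* in the ependymal list, which had 0 reads after vehicle and 2 after corticosterone.

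**Figure D4:**
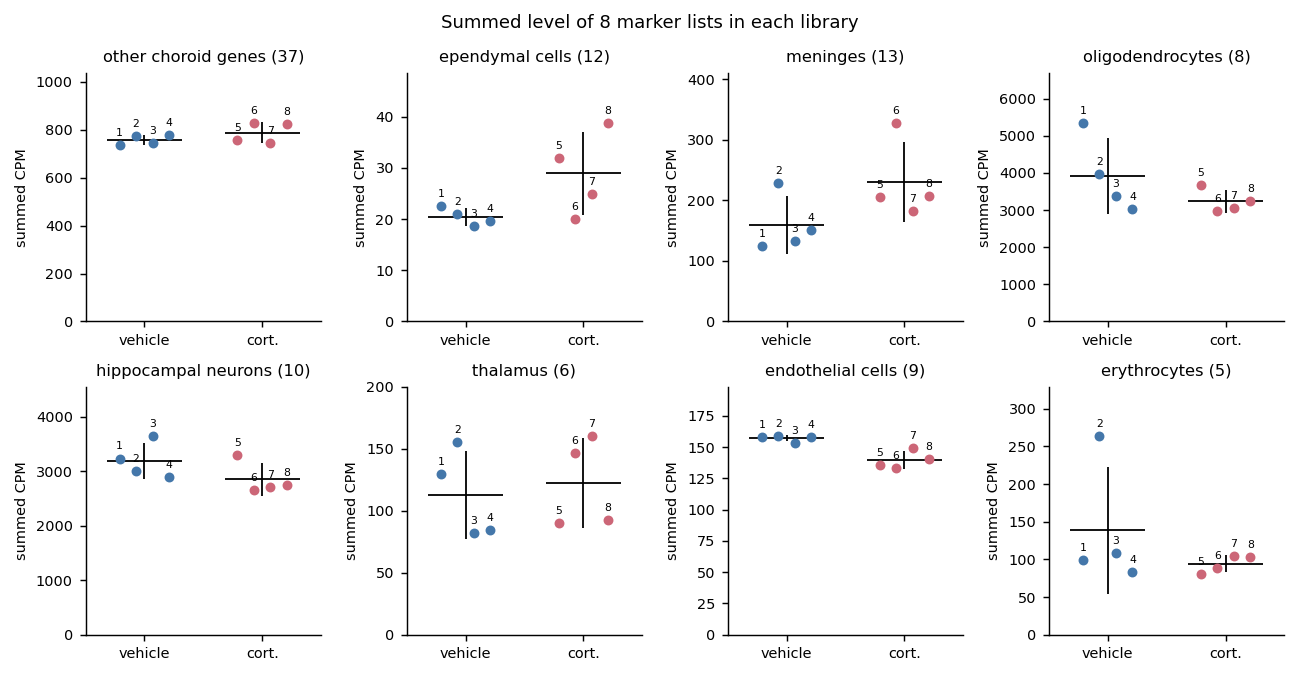
Summed level (CPM) of 8 marker lists in each library, vehicle in blue and corticosterone (cort.) in red, with the number of genes in brackets, replicate numbers above the points, group means as horizontal lines and SDs as vertical lines. The ependymal and meningeal sums reached 38.8 and 328 CPM after corticosterone against at most 22.5 and 228 CPM after vehicle, and the oligodendrocyte sum was highest in vehicle replicate 1, at 5345 CPM.

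The partners of the proteins these genes encode were read from a list of 27 genes, with 22 tested, 13 with a positive log2 fold change (median 0.044) and 0 past an adjusted p value of 0.05 in edgeR. At an unadjusted p value under 0.05, *Lrp6*, a Wnt co-receptor, was higher (log2 fold change 0.26) and *Lrp4*, to which *Sostdc1* protein binds, was lower (log2 fold change -0.21), or 2 of 22, near the 9.03% of all genes. *Lpar1*, a receptor of the lysophosphatidic acid made by autotaxin, had a log2 fold change of -0.30 (adjusted p = 0.545 with edgeR). *Rbp4*, the retinol-binding partner of transthyretin, had a log2 fold change of 0.014. *Fgf23*, the ligand of klotho, had 0 to 6 reads per library, whereas its receptor *Fgfr1* had 2575 to 3301 reads (log2 fold change 0.043). Of the prolactin receptor's downstream genes, *Stat5a* and *Stat5b* had log2 fold changes of 0.54 and 0.22 (adjusted p = 0.546 and 0.545 with edgeR), *Cish* 0.11 and *Socs2* 0.12.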

How the data were processed

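The authors sequenced paired reads of 100 bp, aligned them to the mouse genome (mm10), and deposited raw counts per gene made with HTSeq, whole numbers without normalization. The strand setting and annotation release of the counting are not given in the sources used here, so genes that share exons are uncertain. All 8 columns were mapped by their labels and 0 columns were left out. The 5 summary entries that name no gene were kept out of library sizes. Symbols came from GENCODE M21 (GRCm38), in which 50376 of 50686 identifiers were found.

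Counts were normalized with TMM (factors 0.983 to 1.02), filtered by filterByExpr and compared by quasi-likelihood F tests in edgeR 4.0.16 (R 4.3.3, Benjamini-Hochberg over 16018 genes, threshold 0.05). The standard error is the log2 fold change divided by the root of F. Log2 CPM used a prior count of 2, and log2 ratios 0.5 added to both counts. Single genes were compared by exact permutation. The deposited counts gave a biological coefficient of variation of 0.111. Alternatives were DESeq2 1.42.0, limma-voom (limma 3.58.1), other filters and normalizations, and each library left out. The fit was tested on simulated data with 200 changed genes. The named genes are the members, the genes of each list at an unadjusted p under 0.05 and the 10 genes most like *Ttr*; single members of a list named beside them, with their values, were chosen after those values were seen. Members and lists were chosen with earlier results of these data known. The replicates are separate mice, and litter and day are not named in the labels. Some single genes of the lists are not reported here and remain in the counts for whole lists.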

Additional observations from a re-analysis of the deposited data

Results flagged for a closer look

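In groups of 4, a library far from the other 3 was looked for in 38 sets of values, where about 1 in 20 are marked by chance (1.9 of 38), and 5 were found. *Sostdc1* was at 1.33 CPM in vehicle replicate 3 and at 1.91 to 1.95 CPM in the other vehicle libraries. The meningeal markers summed to 328 CPM in corticosterone replicate 6, against 183 to 207 CPM in the rest of that group. The erythrocyte genes summed to 263 CPM in vehicle replicate 2, against 83.1 to 108 CPM. The genes of hippocampal neurons summed to 3293 CPM in corticosterone replicate 5, against 2655 to 2750 CPM. The partner genes summed to 546 CPM in the same library, against 518 to 522 CPM.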

How the results depend on the processing

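No paired analysis was possible because no replicate number occurs in both groups. Over all settings, the log2 fold change was 0.31 to 2.17 for *Ttr*, 0.92 to 1.85 for *Clic6*, 0.73 to 1.63 for *Otx2*, 0.17 to 0.34 for *Sostdc1* and 0.08 to 0.31 for *Prlr*, without a change of sign. The number of the 10 genes past an adjusted p value of 0.05, 0 in the report, was 1 without a filter on low counts and 1 with the oligodendrocyte covariate, which was chosen after seeing the data. At an unadjusted p value under 0.05, 2 in the report, it was 1 with at least 10 counts in every sample, 1 with limma-voom, 4 with the oligodendrocyte covariate and 1 to 4 with 1 library left out (4 without vehicle replicate 1). Over all genes, 1 passed the adjusted threshold in the report, 63 with DESeq2, 79 without a filter, 0 with at least 10 counts in every sample and 0 to 1651 with 1 library left out (1651 without corticosterone replicate 5 and 19 without vehicle replicate 1). The sign changed for *Kl* with the oligodendrocyte covariate (0.035) and without vehicle replicate 1; with 1 library left out, it was between -0.075 and 0.016, and its difference in mean log2 CPM between -0.067 and 0.018. With 1 library left out, that of *Enpp2* was between -0.095 (without vehicle replicate 3) and 0.20 (without vehicle replicate 1), its difference in mean log2 CPM between -0.066 and 0.21, and its value at equal *Ttr* between -0.20 and 0.083. At equal *Ttr*, that of *Otx2* was between -0.11 (without vehicle replicate 1) and 0.78. The difference in mean log2 CPM of *Aqp1* was between -0.14 (without vehicle replicate 2) and 0.27 (without vehicle replicate 1). The r of *Sostdc1* with *Ttr* was -0.32 without the 2 libraries farthest from the median of *Ttr*. The cause was not tested. The exact permutation p of *Sostdc1* was no longer the smallest possible without vehicle replicate 3 or corticosterone replicate 6 or 7. With at most 43 reads per library for *Otx2*, *Folr1*, *Sostdc1*, *Aqp1* and *Steap1*, counting error limits these genes more than *Ttr* or *Enpp2*.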
